A study of Homo sapiens with 4 samples.

Results

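The response of LNCaP cells to 24 h of azacytidine was read on 2 of the 4 arrays of the series, those labelled as azacytidine treatment at 24 h. LNCaP cells are an established human line, derived from prostate cancer that had spread to a lymph node, and they respond to androgen. The cells went without serum for 24 h and then received 1 µM 5-azacytidine for 24 h, or the same time in the vehicle DMSO (dimethyl sulphoxide). Each array carried vehicle RNA in Cy3 beside RNA of treated cells in Cy5, so that every value is a ratio of treated to vehicle cells of one time. Serum withdrawal applied to vehicle cells as well, and the other 2 arrays held the same pair of treatments at 48 h. Dyes were not swapped on any array, so a dye effect and the effect of the drug cannot be told apart. The labels do not say whether the arrays came from separate cultures, and the p-values therefore measure only the spread between arrays, which may be technical. A ratio holds no level, so the luminal identity of the line could not be checked from expression. RNA came from whole cultures, in which fewer cells of a kind and less RNA per cell cannot be told apart.

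Azacytidine is an analogue of cytidine that enters RNA and, once reduced, DNA. There it binds DNA methyltransferases covalently, and methylation is lost as the cells go on to replicate. Genes held silent by promoter methylation in somatic cells, many germline genes among them, are known to be transcribed again after such treatment. The drug also burdens dividing cells with damaged DNA and altered nucleotide supply.

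Values below are log2 ratios of azacytidine over DMSO, on which 1 stands for 2-fold. The deposited ratios were taken as log10, the convention of the array software, and as Cy5 over Cy3. If they were log2, every ratio would shrink by a factor of 3.32 and every call would stand. Ratios are given for each of the 2 arrays, in the order of replicate 1 and replicate 2, or as the mean ± SD with n = 2. A gene is said to have risen or fallen where the mean ratio differed from 0 in limma at an adjusted p under 0.05, a test that drew its spread from all 4 arrays. Of 18334 genes, 4446 passed (24.3%). Of these, 2618 rose (14.3%) and 1828 fell (9.97%), and each of the 4446 had one sign on both arrays. The sizes were uneven. Among genes that rose, 1482 did so at least 2-fold (8.08% of all genes), 612 at least 4-fold (3.34%), 262 at least 8-fold, 109 at least 16-fold and 35 at least 32-fold. Among genes that fell, 647 did so at least 2-fold (3.53%), 90 at least 4-fold (0.491%), 12 at least 8-fold, 4 at least 16-fold and 0 at least 32-fold. The median ratio of the genes that rose was 1.12 and of those that fell -0.81, against 0 over all genes. A further 1042 genes had a mean ratio beyond 2-fold in either direction but did not pass. The median SD of their 24 h arrays was 0.22 against 0.089 over all genes. The spread used by the test also took in the 48 h arrays, which differed more from each other. Over all genes the median absolute difference between arrays was 0.33 at 48 h and 0.13 at 24 h. A gene with close 24 h arrays could thus fail to pass. The calls rest on both arrays. When 24 h replicate 1 was left out, no gene (0) passed in limma, although 3796 had an unadjusted p under 0.05. Leaving out 24 h replicate 2 also left 0 genes, with 3602 at that unadjusted level. Against a threshold of 2-fold in place of 0, 214 genes passed, 182 higher and 32 lower.

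**Figure D1:**
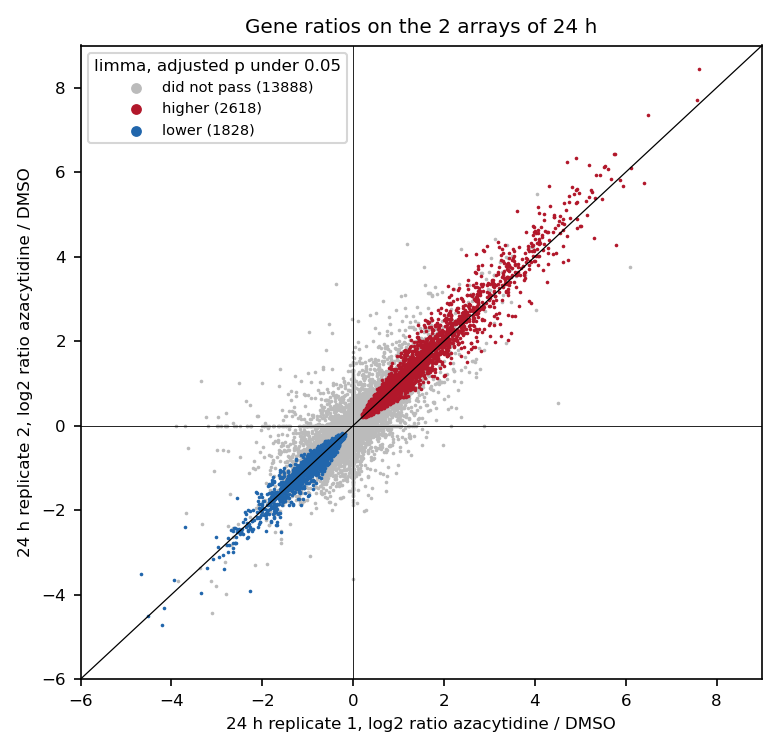
Log2 ratio of azacytidine over DMSO on 24 h replicate 1 (horizontal) and replicate 2 (vertical), 1 point a gene, coloured by the limma call. The 2618 genes that rose reach past 8 on the upper right, whereas the 1828 that fell end above -5 on the lower left.

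The highest ratio belonged to PIP, the prolactin-induced protein of apocrine and prostate secretions, at 7.61 and 8.44. The gene of the sugar-binding protein galectin-3, LGALS3, followed at 7.57 and 7.72. For both genes the 2 arrays lay within 1 log2 unit of each other and far above 0, and the means correspond to 260.3-fold and 199.9-fold (limma adjusted p = 0.0133 and 0.0126).

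Genes known from germ cells or the cleavage embryo were among the 25 highest, a grouping made after the genes were seen. The X-linked reproductive homeobox gene RHOXF2B stood at 6.48 and 7.35. CCNA1, the cyclin of male meiosis, was at 5.76 and 6.43. The cleavage-stage genes TRIM43 and TRIM49 were at 5.74 and 6.43 and at 5.52 and 6.12, PRAMEF2 was at 5.95 and 5.68, and ZSCAN4, which encodes a factor of the cleavage embryo, was at 4.70 and 6.25. ZSCAN4 had the widest gap between arrays of the genes named so far, and neither of its values came near 0. MAEL, a transposon-silencing factor of germ cells, was at 5.68 and 5.84 and DAZL, an RNA-binding protein of germ cells, at 5.19 and 6.18. The cancer-testis antigen genes CT45A5, MAGEA9, SPANXD and PAGE2 had means of 5.69 ± 0.35, 5.43 ± 0.073, 5.36 ± 0.052 and 5.25 ± 0.47. These antigen families, like PRAMEF and RHOXF2, hold near-identical copies, and the array cannot say which copy gave the signal.

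Proteases, their inhibitors and secreted proteins were also among the 25. The metalloproteinase gene MMP7 was at 5.54 and 6.15 and the collagenase gene MMP1, read by 10 features, at 5.23 and 5.57. LCN2, an iron-binding antimicrobial lipocalin, was at 5.61 and 6.07. S100A6, a calcium-binding protein, was at 4.91 and 6.35, with replicate 2 the higher by more than 1 log2 unit. CSTA, the epidermal protease inhibitor cystatin A, was at 5.25 and 5.54, ZNF750, a factor of epidermal differentiation, at 5.18 and 5.41 and AGR3, of the protein disulphide isomerase family, at 4.94 and 5.59. Other genes of this range were TSPYL5 at 6.12 and 6.09, CEP15 at 5.87 and 5.81, ITM2A at 5.34 and 5.95 and XIST, the RNA that coats the inactive X chromosome, at 6.40 and 5.74.

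The promoter windows of 6 of these genes and of GSTP1 are shown because DNA methyltransferases act on CG dinucleotides, and the windows differ widely in how many they hold. The 6 were picked from the upper end after their values were seen, and GSTP1 because its promoter is known to be methylated in prostate cancer. Methylation itself was not measured on these arrays. Each sequence is the RefSeq window of GRCh38.p14 from 250 bases before to 50 after the transcript start that the RefSeq table uses, read 5′ to 3′ on the gene's strand, with every CG in capitals. For CCNA1, which has several transcripts, that start lies inside the gene's outermost coordinates. LGALS3, CCNA1, MAEL and GSTP1 have many, and PIP, MMP7 and LCN2 few. The locations are chr14:55129002-55129301 (+ strand, 39 CG) for LGALS3, chr13:36431705-36432004 (+ strand, 35 CG) for CCNA1, chr1:166975332-166975631 (+ strand, 60 CG) for MAEL, chr11:67583562-67583861 (+ strand, 36 CG) for GSTP1, chr7:143131827-143132126 (+ strand, 3 CG) for PIP, chr11:102530698-102530997 (- strand, 4 CG) for MMP7 and chr9:128149203-128149502 (+ strand, 6 CG) for LCN2.
LGALS3: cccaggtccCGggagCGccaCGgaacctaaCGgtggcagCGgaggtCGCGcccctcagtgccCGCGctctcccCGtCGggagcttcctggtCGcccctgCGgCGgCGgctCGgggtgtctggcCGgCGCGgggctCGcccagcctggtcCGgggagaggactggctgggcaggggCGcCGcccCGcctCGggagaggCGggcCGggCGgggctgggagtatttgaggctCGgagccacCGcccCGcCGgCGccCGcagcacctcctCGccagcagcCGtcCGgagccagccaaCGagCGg
CCNA1: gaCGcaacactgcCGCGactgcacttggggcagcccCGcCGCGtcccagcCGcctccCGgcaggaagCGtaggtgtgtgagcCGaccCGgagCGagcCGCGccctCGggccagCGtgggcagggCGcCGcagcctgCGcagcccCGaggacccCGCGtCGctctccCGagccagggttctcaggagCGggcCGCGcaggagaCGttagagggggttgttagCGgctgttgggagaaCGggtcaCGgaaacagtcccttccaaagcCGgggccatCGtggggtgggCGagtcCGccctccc
MAEL: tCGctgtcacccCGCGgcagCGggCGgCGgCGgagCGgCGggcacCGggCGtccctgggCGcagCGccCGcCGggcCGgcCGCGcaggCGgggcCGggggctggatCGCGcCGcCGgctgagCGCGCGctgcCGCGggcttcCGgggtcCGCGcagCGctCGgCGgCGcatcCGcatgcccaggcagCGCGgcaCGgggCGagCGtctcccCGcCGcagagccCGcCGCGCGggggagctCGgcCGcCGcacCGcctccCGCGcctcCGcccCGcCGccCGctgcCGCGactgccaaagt
GSTP1: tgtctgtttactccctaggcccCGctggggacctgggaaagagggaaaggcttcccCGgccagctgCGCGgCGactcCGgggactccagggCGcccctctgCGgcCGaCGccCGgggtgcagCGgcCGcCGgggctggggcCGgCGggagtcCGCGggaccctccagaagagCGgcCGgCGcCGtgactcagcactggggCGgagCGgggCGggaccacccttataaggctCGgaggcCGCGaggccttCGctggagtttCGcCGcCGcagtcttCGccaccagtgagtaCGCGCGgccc
PIP: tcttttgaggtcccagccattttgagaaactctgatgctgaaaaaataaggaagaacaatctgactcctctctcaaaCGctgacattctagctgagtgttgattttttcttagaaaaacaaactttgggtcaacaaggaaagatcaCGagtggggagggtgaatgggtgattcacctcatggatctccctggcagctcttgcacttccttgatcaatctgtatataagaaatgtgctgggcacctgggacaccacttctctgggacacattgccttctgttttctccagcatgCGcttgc
MMP7: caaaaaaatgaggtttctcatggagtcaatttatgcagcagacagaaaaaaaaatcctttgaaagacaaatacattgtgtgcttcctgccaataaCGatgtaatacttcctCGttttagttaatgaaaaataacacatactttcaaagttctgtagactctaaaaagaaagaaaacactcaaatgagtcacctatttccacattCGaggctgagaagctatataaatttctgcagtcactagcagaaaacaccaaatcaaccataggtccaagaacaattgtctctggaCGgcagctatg
LCN2: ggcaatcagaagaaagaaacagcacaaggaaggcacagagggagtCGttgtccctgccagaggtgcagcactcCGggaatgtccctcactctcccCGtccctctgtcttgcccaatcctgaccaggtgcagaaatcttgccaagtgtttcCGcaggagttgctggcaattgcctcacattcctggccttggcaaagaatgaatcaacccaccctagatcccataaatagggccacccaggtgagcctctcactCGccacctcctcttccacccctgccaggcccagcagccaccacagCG

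Over 14410 genes with such a window, the window held a median of 23 CG. The median was 23 for the 2038 of them that rose and 24 for the 1438 that fell, close to that of all genes. It was 12 for the 445 that rose at least 4-fold and 8 for the 83 that rose at least 16-fold, and 18.5 for the 64 that fell at least 4-fold. By class, 5.28% of the 2085 genes with 0 to 4 CG rose at least 4-fold, 6.30% of the 1413 with 5 to 9, 3.44% of the 2441 with 10 to 19, 2.14% of the 3881 with 20 to 29 and 1.72% of the 4590 with 30 or more. Large rises were thus most frequent in the classes with the fewest CG, although 15 of the 83 genes that rose at least 16-fold had 30 or more. Large falls had a shallower gradient, from 0.624% of genes with 0 to 4 CG to 0.327% of those with 30 or more. Ratios also spread more widely in the classes with few CG, with an SD across genes of 1.06 at 0 to 4 and 0.79 at 30 or more. These are descriptions across genes, which are not independent replicates.

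**Figure D2:**
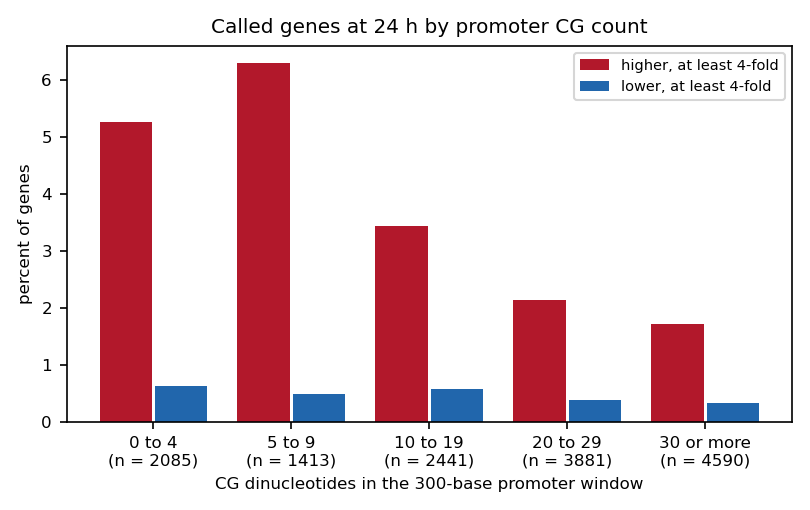
Percent of genes that rose (red) or fell (blue) at least 4-fold at 24 h, by the number of CG dinucleotides in the 300-base promoter window, with the number of genes under each class. The red bars fall from 6.30% at 5 to 9 CG to 1.72% at 30 or more, and the blue bars stay below 1%.

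At the lower end the 25 genes reached from -4.51 for ZNF417, a zinc finger gene, to -2.68 for CENPF, a kinetochore gene. H1-5, a linker histone gene of S phase, was at -4.21 and -4.71 and GRIK1, a kainate receptor gene, at -4.15 and -4.33. MMP26, a metalloproteinase gene, was at -4.67 and -3.51 and the protease gene TLL1 at -3.93 and -3.65. On both arrays ZNF417, H1-5, GRIK1, MMP26 and TLL1 lay at or below -3.51. SLITRK3 and IL1RAPL1, membrane proteins of synapses, were at -3.70 and -2.40 and at -2.65 and -2.78, and the butyrylcholinesterase gene BCHE was at -2.96 and -3.11. Others are known from prostate, namely OR51E1, an olfactory receptor gene that prostate epithelium expresses, at -2.85 and -3.05, PAGE4, the one PAGE gene with strong expression in prostate, at -3.03 and -2.64, and the zinc exporter gene SLC30A4 at -2.60 and -2.77. VASH2, a tubulin carboxypeptidase gene, was at -2.76 and -2.99, the LIM homeobox gene LHX2 at -2.73 and -2.82 and the condensin gene NCAPG at -2.76 and -2.67. PAGE4 thus moved against its relatives PAGE2, PAGE2B and PAGE5, which lay at 5.25, 4.76 and 5.09. Its own ratio was negative on both arrays.

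**Figure D3:**
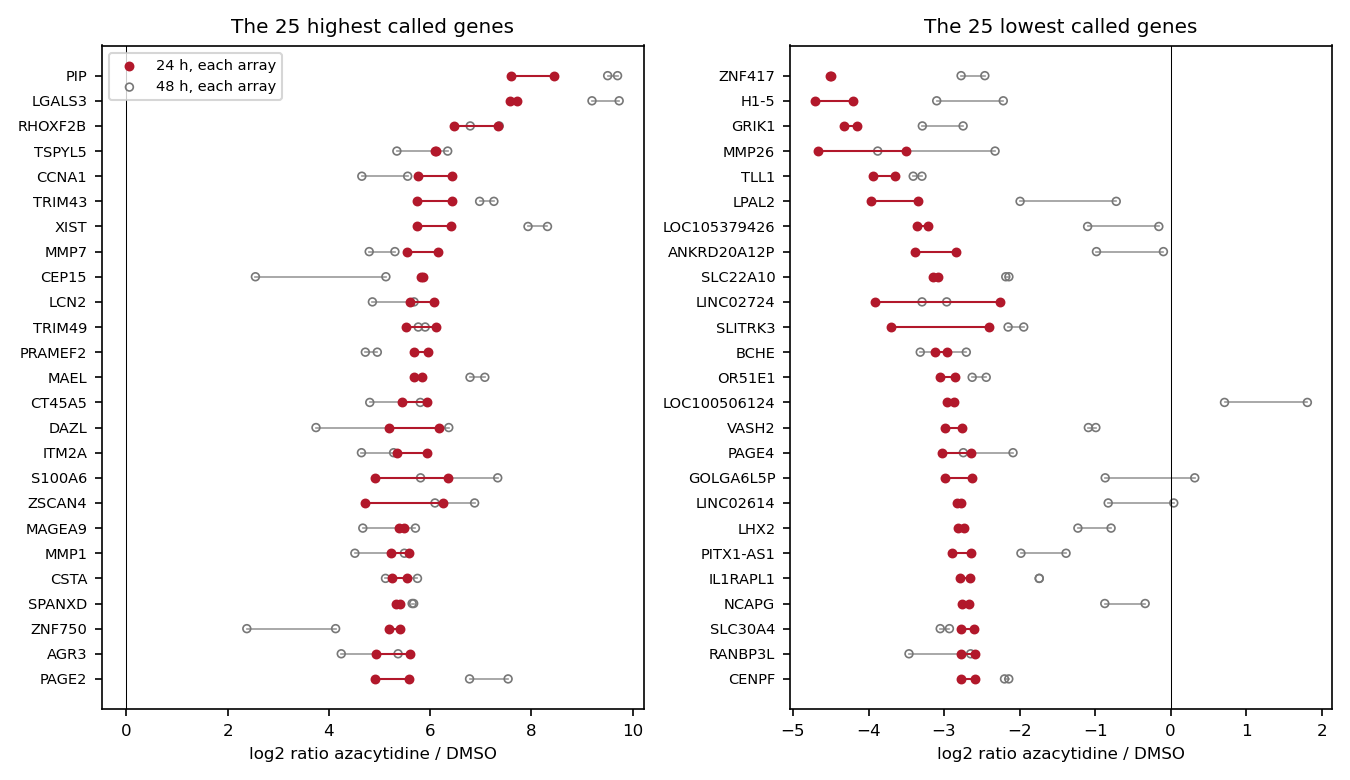
Log2 ratios of the genes at both ends of the range among those that passed the limma test at 24 h, 25 at each end by their mean. Filled red points are the 2 arrays of 24 h and open grey points the 2 arrays of 48 h, each pair joined by a line. The 24 h points of every gene lie on one side of 0, and LOC100506124, at 1.26 at 48 h, is above 0 on both later arrays.

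The 3 gene groups with the largest shares of members that rose were cleavage-stage genes, SSX, SPANX and CTAG antigens, and PAGE, GAGE and XAGE antigens. Each group below was drawn up as a list or a family of symbols, and its counts stand against the 14.3% of all genes that rose and the 9.97% that fell. Members listed at 0 count as measured. Groups were chosen with earlier results of these data known, so their shares describe these arrays and do not test the groups. Among cleavage-stage genes, most of them targets of the embryonic factor DUX4, 17 of 22 measured members rose and 1 fell, with a median ratio of 3.64. The member that fell was PRAME, a tumour antigen gene of the same family as PRAMEF2, at -0.75 and -0.70. Of SSX, SPANX and CTAG antigens, 7 of 11 rose and 0 fell (median 2.83), led after SPANXD by SPANXA1 at 4.59 ± 0.15 and CTAG1A at 3.62 ± 0.26. Of PAGE, GAGE and XAGE antigens, 5 of 10 rose and 1, PAGE4, fell (median 2.47). Of MAGE antigens, 8 of 20 rose and 0 fell (median 1.66), among them MAGEB2 at 3.55 ± 0.22 and MAGEA8 at 3.44 ± 0.19.

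The piRNA pathway guards the germline genome against transposons with small RNAs. Of its genes, 10 of 26 rose and 1 fell, with a median of 0.82. The helicase gene TDRD9 stood at 3.99 and 4.70 and the piRNA-trimming nuclease gene PNLDC1 at 2.17 and 2.27. TDRD3 alone fell, at -1.06 ± 0.073, and it is a Tudor gene with a broad role in transcription rather than in piRNA. PIWIL1, an effector of the pathway, was listed at 0 on both arrays.

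Meiotic chromosome genes split in both directions. In that list 13 of 44 rose, 8 fell and the median was 0.02, or 0.40 without features listed at 0. Components of the synaptonemal complex stood at both ends, with SYCP3 at 5.01 and 4.73 and SYCE1 at 4.15 and 4.70 and, in contrast, SYCE2 at -2.31 and -2.48. MND1, a cofactor of strand exchange, was at -1.98 and -1.94. Pluripotency genes also split, 7 of 27 having risen and 2 fallen (median 0, or 0.57 without features listed at 0). LEFTY1, a signalling antagonist, was at 3.42 ± 0.32, DPPA5 at 2.82 ± 0.59 and the embryonic factor gene KLF17 at 2.52 ± 0.56. NANOG, a core factor of pluripotency, fell to -2.01 and -1.68 and TRIM71, a regulator of embryonic RNAs, to -1.73 and -2.07. The NANOG family has processed copies, which a feature may also detect.

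**Figure D4:**
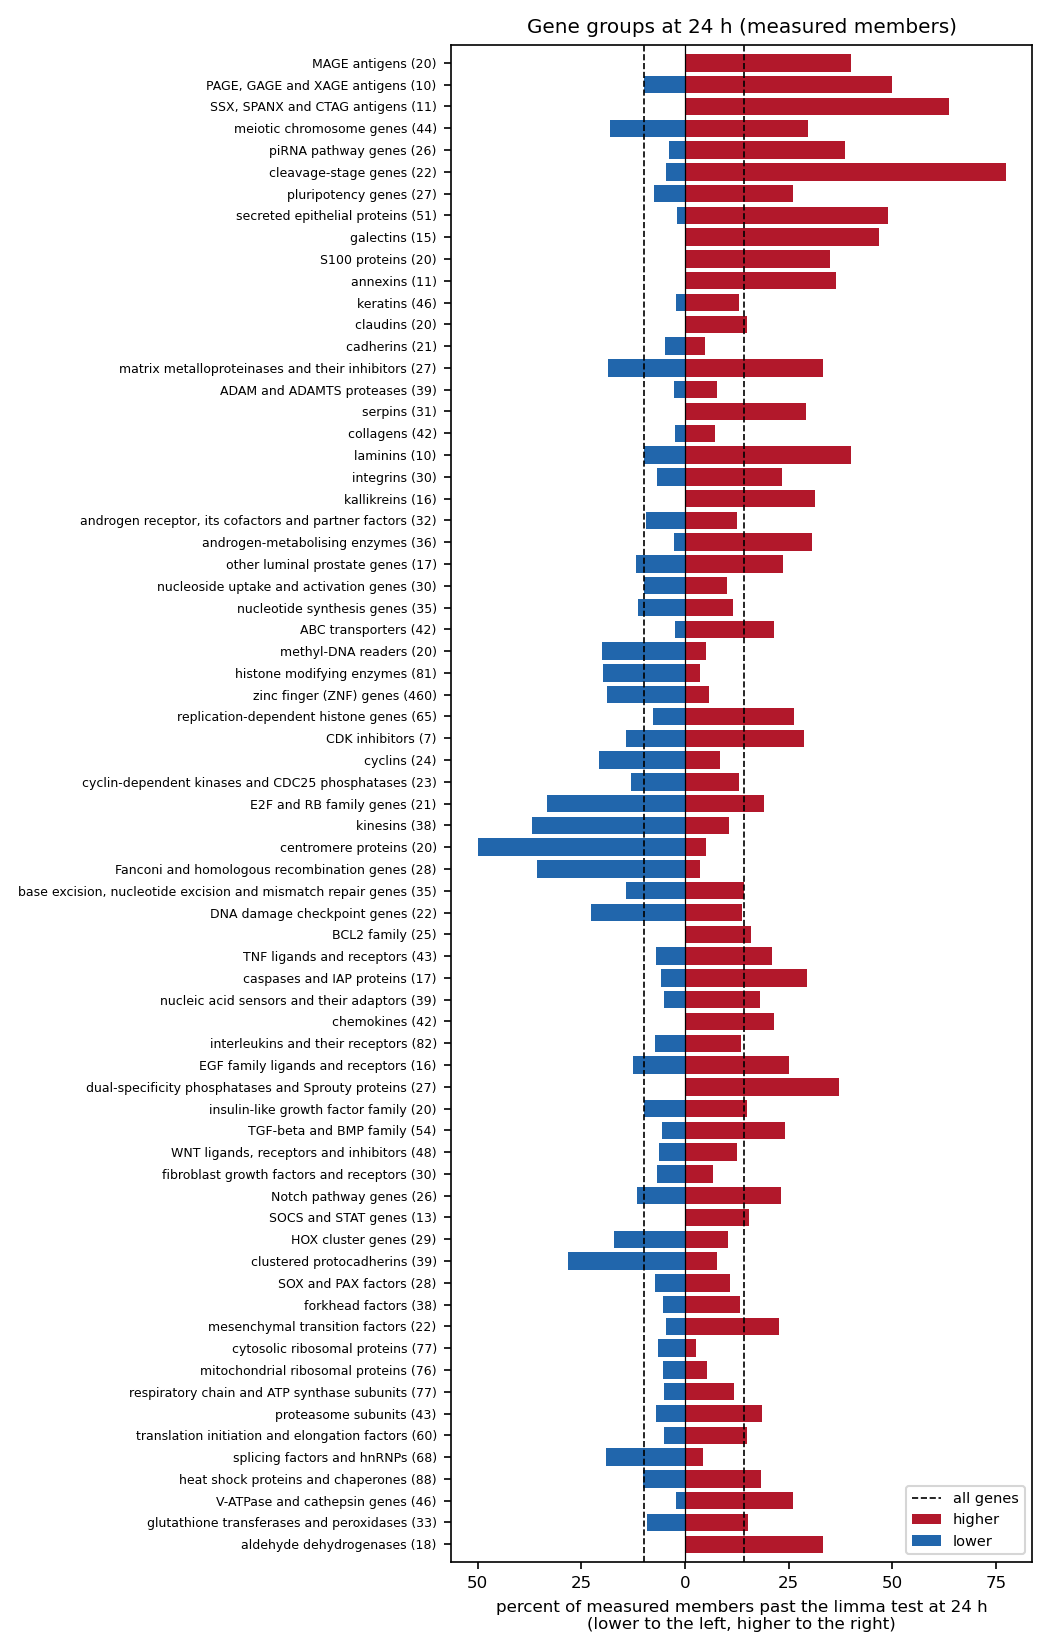
Percent of the measured members of each gene group that rose (red, right) or fell (blue, left) in limma at 24 h, with the number of measured members in brackets and dashed lines at the 14.3% and 9.97% of all genes. Cleavage-stage genes have the longest red bar at 77.3% and centromere proteins the longest blue bar at 50%.

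Secreted and barrier proteins of epithelia had larger shares of rising members than the 14.3% of all genes. Of secreted epithelial proteins, 25 of 51 rose and 1 fell, with a median of 1.13. TFF3, a trefoil peptide gene of mucous glands, was the one that fell, at -1.06 ± 0.052. Galectins, lectins that bind galactosides, had 7 of 15 members risen and 0 fallen (median 0.72, or 1.18 without features listed at 0), with LGALS2 at 2.70 and 3.63 and LGALS7B at 2.06 and 1.98 after LGALS3. Of S100 proteins, 7 of 20 rose and 0 fell (median 0.84, or 0.51 without 24 h replicate 2), with S100P at 4.15 and 4.52 and S100A14 at 3.99 and 4.42. Annexins, which bind membranes in the presence of calcium, had 4 of 11 risen and 0 fallen (median 0.54). ANXA3 was at 2.87 ± 0.25, ANXA2 at 2.42 ± 0.41 and ANXA1 at 2.31 ± 0.45, but the 4 features of ANXA2 ranged from 0 to 5.09.

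Among structural and junction families, keratins, claudins, cadherins and collagens gave a different picture, and laminins did not. Keratins, at 6 of 46 risen and 1 fallen, and claudins, at 3 of 20 and 0, had shares of rising members near that of all genes. Those that rose most were the simple-epithelium keratin KRT19 at 2.86 ± 0.013, KRT80 at 2.58 ± 0.17 and KRT7 at 2.57 ± 0.53, and the claudin genes CLDN7 at 1.77 ± 0.11 and CLDN4 at 1.55 ± 0.088. The 2 features of KRT80 lay at 1.43 and 3.73. Cadherins had 1 of 21 risen and 1 fallen, and collagens 3 of 42 and 1. Of laminins 4 of 10 rose and 1 fell, with LAMB3, a chain of the epithelial laminin, at 3.69 ± 0.18 and LAMB1 at -1.04 ± 0.025.

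Proteases of the extracellular space went both ways. Of metalloproteinases and their inhibitors 9 of 27 rose and 5 fell, the macrophage elastase gene MMP12 at 5.15 and 4.99 standing against MMP11 at -1.66 and -1.67. Serpins, inhibitors of serine proteases, had 9 of 31 risen and 0 fallen, with SERPINB1 at 4.63 ± 0.18, SERPINH1 at 2.01 ± 0.36 and SERPINA5 at 1.98 ± 0.17. ADAM and ADAMTS proteases had 3 of 39 risen and 1 fallen, shares under those of all genes in both directions.

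Prostate genes were divided. Of kallikreins, serine proteases that the prostate secretes, 5 of 16 rose and 0 fell (median 1.04), with KLK11 at 4.09 and 4.37 and KLK1 at 2.39 and 2.48 above the androgen-driven KLK2 at 1.52 ± 0.078 and KLK3, the gene of prostate-specific antigen, at 1.17 ± 0.066. The 3 features of KLK2 spanned 0 to 2.41 and the 3 of KLK3 spanned -0.39 to 2.28. Of other luminal prostate genes 4 of 17 rose and 2 fell. MSMB, a secreted protein of seminal plasma, stood at 4.07 and 4.64, the cold channel gene TRPM8 at 3.60 and 5.08 and TARP, of the T-cell receptor gamma locus, at 4.01 and 3.90. In contrast FOLH1, which encodes prostate-specific membrane antigen, stood at -1.16 and -1.36 and TMEFF2 at -0.99 and -1.19. HOXB13, a homeobox factor of prostate identity, fell to -1.55 and -1.48, and ETV1, an ETS factor that LNCaP cells are known to overexpress, to -0.82 and -0.94. In the list of androgen receptor cofactors and partner factors 4 of 32 rose and 3 fell, shares close to those of all genes.

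Enzymes that metabolise androgens rose in 11 of 36 cases and fell in 1. UGT2B28 and UGT2B11, which join glucuronic acid to steroids, were at 4.63 and 4.90 and at 4.20 and 4.30, and HSD17B2, which oxidises testosterone to a weaker androgen, was at 3.98 and 4.59. UGT2B15, the main androgen-glucuronidating enzyme of this line together with UGT2B17, was at 0.07 and -0.06 and did not pass. The UGT2B genes are similar in sequence, so their ratios may share signal. HSD17B14 fell, at -1.09 ± 0.16.

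Genes that handle the drug and supply nucleotides stayed near the background share. Of nucleoside uptake and activation genes 3 of 30 rose and 3 fell, and of nucleotide synthesis genes 4 of 35 and 4. UCK2, a uridine-cytidine kinase that phosphorylates azacytidine, rose to 0.29 and 0.36. The transporter gene SLC29A1 was at 0.39 and 0.43 and the cytidine deaminase gene CDA at 0.22 and 0.13, and neither passed (limma adjusted p = 0.222 and 0.13). TK1, the thymidine kinase of S phase, fell to -1.71 and -1.85 and the transporter gene SLC29A4 to -0.88 and -0.91. RRM2B, the ribonucleotide reductase subunit that p53 induces, rose to 1.69 and 1.72, IMPDH2, of guanine nucleotide synthesis, to 1.25 and 1.32, and the CTP synthase gene CTPS1 to 0.91 and 0.90. DUT, which clears dUTP, fell to -0.80 and -0.79. Of ABC transporters 9 of 42 rose and 1 fell, led by ABCC3 at 4.56 and 4.97, ABCC12 at 4.46 and 4.08 and the epidermal lipid transporter gene ABCA12 at 4.11 and 4.32.

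In the machinery of chromosome segregation and recombination more genes fell than rose. Of centromere proteins 10 of 20 fell and 1 rose, with a median of -0.78, and CENPA, the histone variant of the centromere, stood at -2.30 and -2.33. Kinesins had 14 of 38 fallen and 4 risen (median -0.31). Those that fell most were the mitotic motors KIF20A at -2.45 and -2.44 and KIF18B at -2.34 and -2.32, and those that rose most were KIF26B at 2.01 and 1.18, KIF26A at 1.19 and 1.03 and the neuronal KIF5A at 0.72 and 1.10. Of Fanconi and homologous recombination genes 10 of 28 fell and 1 rose (median -0.47), with the helicase gene BLM at -1.82 and -1.68 and the exonuclease gene EXO1 at -1.73 and -1.69. E2F and RB family genes had 7 of 21 fallen and 4 risen. FOXM1, the activator of mitotic genes, was at -1.48 and -1.44, whereas RBL2, the pocket protein of resting cells, was at 0.86 and 1.06 and the testis-restricted TFDP3 at 3.81 and 3.88.

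Regulators of the cell cycle changed singly. Of 7 CDK inhibitors, CDKN2B at 2.74 and 2.57 and CDKN1A at 2.38 and 2.56 rose, and CDKN3, a phosphatase of CDKs, fell to -1.27 and -1.39. Cyclins had 2 of 24 risen and 5 fallen, the G1 cyclin CCND3 at 1.13 ± 0.069 against the mitotic cyclin CCNB2 at -1.49 ± 0.0028. CDC25C, the phosphatase that opens mitosis, was at -1.49 and -1.54.

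DNA damage genes were mixed. Of checkpoint genes 3 of 22 rose and 5 fell, and the 2 that rose most, PPM1D at 1.82 and 1.53 and MDM2 at 1.58 and 1.53, both encode p53-induced inhibitors of the p53 response. CHEK1, the replication checkpoint kinase, fell to -1.01 and -1.12 and the histone variant H2AX to -0.98 and -0.98. Among excision and mismatch repair genes 5 of 35 rose and 5 fell. The damage recognition genes DDB2 and XPC stood at 0.99 and 1.01 and at 0.78 and 0.87, UNG, which removes uracil from DNA, at 0.89 and 0.96 and the glycosylase gene NEIL3 at -1.52 and -1.60.

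Of the BCL2 family, which controls cell death at mitochondria, 4 of 25 rose, a share near that of all genes, and 0 fell, with BCL2L14 at 1.88 and 2.73, the p53-induced killer gene PMAIP1, which encodes NOXA, at 1.93 and 1.89 and BNIP3 at 1.10 and 1.08. The pore-forming BAX was at 0.62 and 0.42 and did not pass (limma adjusted p = 0.0759). Of TNF ligands and receptors 9 of 43 rose and 3 fell. TNFSF10, the death ligand TRAIL, was at 2.71 and 2.64, TNFSF15 at 2.93 and 2.90 and CD70 at 2.42 and 2.69, while TNFRSF19 was at -1.97 and -1.98. Of caspases and IAP proteins 5 of 17 rose and 1 fell. The inflammatory caspases CASP5 at 1.38 and 1.53 and CASP4 at 1.17 and 1.13 led the first, and the one that fell was the mitotic survivin gene BIRC5 at -1.87 and -1.87.

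Among growth signalling genes, feedback inhibitors of kinases had one of the larger shares of rising members. Dual-specificity phosphatases and Sprouty proteins, which restrain MAP kinases, had 10 of 27 risen and 0 fallen (median 0.58), with SPRY4 at 3.88 and 3.81, DUSP5 at 2.23 and 1.87 and DUSP1 at 1.95 and 2.03. Of the EGF family 4 of 16 rose and 2 fell, among them the feedback inhibitor gene ERRFI1 at 0.83 ± 0.092 and the ligand gene HBEGF at 0.79 ± 0.11. Those that fell were LRIG3, of a family that restrains receptor signalling, at -1.64 ± 0.014 and the ligand gene NRG2 at -0.67 ± 0.12. None of the 4 rises reached 2-fold, and the median of the family, -0.13, was -0.33 without 24 h replicate 1 and 0.09 without 24 h replicate 2. TGF-beta and BMP genes had 13 of 54 risen and 3 fallen, with the stress-induced GDF15 at 3.11 and 3.36 and the activin antagonist FST at 3.02 and 2.13. Of the insulin-like growth factor family 3 of 20 rose and 2 fell, shares close to those of all genes. Its binding protein genes IGFBP3, read by 12 features, and IGFBP6 rose, at 3.29 and 3.62 and at 1.75 and 2.20. IGFBP4 fell, at -0.52 and -0.77, and the other member that fell did so at least 2-fold. Notch targets included HES1 at 2.15 and 2.54 and HEY1 at 1.97 and 2.01, in a list of which 6 of 26 rose and 3 fell. WNT genes, at 6 of 48 risen and 3 fallen, and FGF genes, at 2 of 30 and 2, stayed near or under the background share, although the receptor gene FZD2 was at -2.56 and -2.52 and FGFR3 at 2.85 and 2.50.

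Among immune genes, 9 of 42 chemokines rose and 0 fell. XCL1 and XCL2, near-identical lymphocyte chemokines, were at 2.83 and 3.81 and at 3.18 and 4.34, and CCL8 was at 3.42 and 3.16. Interleukins and their receptors had 11 of 82 risen and 6 fallen, shares close to those of all genes, with the inflammasome cytokine IL18 at 4.05 and 4.17 over 10 features. Of nucleic acid sensors and their adaptors 7 of 39 rose and 2 fell. The DNA sensor IFI16 was at 1.65 and 2.09, the adaptor STING1 at 1.67 and 1.61 and the interferon regulatory factor IRF1 at 1.69 and 1.78, whereas EIF2AK2, the kinase that double-stranded RNA activates, was at -0.98 and -1.37. IFNB1, the type I interferon, was at 0 and -0.40 and did not pass. Of SOCS and STAT genes 2 of 13 rose, a share close to that of all genes, and 0 fell. The 2 were STAT6 at 3.22 and 3.25 and STAT3, read by 13 features, at 1.42 and 1.47.

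Chromatin genes fell more often than they rose. Of histone modifying enzymes 16 of 81 fell and 3 rose (median -0.24). The 3 that rose were the arginine methyltransferase PRMT5 at 1.17 and 1.14, the deacylase SIRT7 at 0.98 and 1.10 and the demethylase KDM1A at 0.68 and 0.82. Methyl-DNA readers had 4 of 20 fallen and 1 risen, with ZBTB4, which binds methylated CG, at -0.80 and -0.77. The ZNF genes, DNA-binding factors of which many are repressors, had 87 of 460 members fallen (18.9%) and 27 risen (5.87%), with a median of -0.23. After ZNF417 the lowest was ZNF483 at -1.73 and -2.16, and after ZNF750 the highest were ZNF560 at 3.25 and 2.13 and ZNF280A at 1.66 and 1.87. Splicing factors and hnRNPs, at 13 of 68 fallen and 3 risen (median -0.19), leaned the same way.

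Replication-dependent histone genes rose more often than they fell, H1-5 being one of those that fell. Of 65 such genes 17 rose and 5 fell (median 0.49), with H2AC7 at 1.74 and 1.87 and H2AC19 at 1.84 and 1.64 against H4C13 at -1.93 and -2.13. Many of these genes are close copies of each other, and one feature may read several of them.

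Among developmental genes, clustered protocadherins, adhesion genes of neurons, had 11 of 39 members fallen and 3 risen (median -0.59). The beta cluster gene PCDHB6 was at -2.38 and -2.21 and PCDHB12 at -1.51 and -1.68, and the 3 that rose were PCDHGB7 at 1.75 ± 0.25, PCDHA1 at 1.40 ± 0.16 and PCDHA5 at 1.21 ± 0.07. Of HOX genes 3 of 29 rose and 5 fell, HOXD8 at 3.64 and 3.76 and HOXB5 at -1.36 and -1.27 lying furthest from 0 among those that passed, apart from HOXB13. SOX and PAX factors, at 3 of 28 and 2, and forkhead factors, at 5 of 38 and 2, were at or under the background shares, with SOX9, a factor of prostate bud and basal epithelium, at 2.10 and 2.04. Of mesenchymal transition genes 5 of 22 rose and 1 fell, including the repressor SNAI1 at 2.23 and 2.44 and the matrix gene SPARC at 2.30 and 2.53.

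Ribosomal and respiratory genes had few members that passed at 24 h. Cytosolic ribosomal proteins had 2 of 77 members risen and 5 fallen (median 0.05), mitochondrial ribosomal proteins 4 of 76 and 4 (median 0.04), and respiratory chain and ATP synthase subunits 9 of 77 and 4 (median 0.15). The largest ratio among the last was that of COX7A1, a muscle isoform of a cytochrome oxidase subunit, at 3.72 and 3.96. Proteasome subunits had 8 of 43 risen and 3 fallen (median 0.39). V-ATPase, cathepsin and other lysosomal genes rose in 12 of 46 cases and fell in 1 (median 0.59), with the protease gene CTSD at 1.96 and 2.27 and the cholesterol transporter gene NPC1 at 1.75 and 1.96. Heat shock proteins and chaperones had 16 of 88 risen and 9 fallen, with HSPA1A at 2.35 and 2.49, a gene with a near-identical neighbour. Aldehyde dehydrogenases had 6 of 18 risen and 0 fallen, with ALDH1L2 at 1.96 and 2.15. Glutathione transferases and peroxidases had 5 of 33 risen and 3 fallen, with GSTP1 over 10 features at 3.84 and 4.18 and the peroxidase gene GPX2 at 2.95 and 3.33.

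Markers of cell types that a pure line should not hold were also read. Of 18 leukocyte markers 3 rose and 0 fell. Of 10 endothelial markers 1 rose and 0 fell, and of 12 fibroblast and smooth muscle markers 2 and 0. These shares of rising markers, 16.7%, 10.0% and 16.7%, were near or below the 14.3% of all genes. CSF1R was at 3.25 ± 0.26, CD68 at 2.83 ± 0.21 and ITGAM at 2.33 ± 0.10, while the defining leukocyte gene PTPRC was at 0 and -0.03 over 11 features and CD3E at -1.37 and -1.11, and neither of these passed. PECAM1 was at 0.87 and 0 and DCN at -0.04 and -0.10, and they did not pass either. The highest mean ratio was 0.94 among endothelial markers and 2.05 among fibroblast and smooth muscle markers. Of the latter, 1 rose at least 2-fold. CSF1R, CD68 and ITGAM thus had high ratios while PTPRC, which all leukocytes express, lay near 0 on both arrays. A ratio near 0 holds no level and does not say whether PTPRC was detected. The part of such cells in the other ratios was not tested.

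Called genes were spread over the chromosomes, with 9.09% to 16.5% of the genes of each autosome risen. On the X chromosome 14.3% of 698 genes rose, the same share as over all genes, but 46 of them (6.59%) did so at least 4-fold and 20 at least 16-fold. The X chromosome held 3.81% of the genes with a position and 7.52% of the 612 that rose at least 4-fold. Of the 109 that rose at least 16-fold, 20 were on X. Antigen genes of this chromosome, such as MAGEA9, SPANXD and PAGE2, have near-identical copies. A single signal may thus be counted as several X genes, which was not tested. Among autosomes the share that rose at least 4-fold ran from 1.53% on chromosome 13 to 4.47% on chromosome 11. On the Y chromosome, with 52 genes, 6 rose at least 4-fold (11.5%), the highest share of any chromosome. Protein-coding genes rose in 14.7% and fell in 9.86% of 16720 cases, and long non-coding RNA genes rose in 9.41% and fell in 10.8% of 1063.

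Features of one gene did not always agree. Of 1982 called genes with several features, 616 had features more than 1 log2 unit apart at 24 h, and 7 had features that passed in opposite directions when each was tested alone. The widest range was that of CD44, an adhesion receptor with many splice forms, whose 12 features lay between -0.08 and 6.55. DMRTB1, a testis factor, had features at 1.04 and 7.33, TMEM30B a range from -0.37 to 5.72, EMP1 features at 1.11 and 6.70, and the lysosomal galactosidase gene GALC features at 0 and 6.06. The mean ratios of these genes, 5.11, 4.19, 1.73, 3.90 and 3.03, therefore average over features that differ widely. Features with no gene symbol, 11951 in number, passed in 14.5% of cases, 702 higher and 1025 lower, against 19.1% of the features with 1 symbol.

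The response at 48 h was read from the other 2 arrays and their own vehicle RNA. Of the 2618 genes that rose at 24 h, 1356 passed in the same direction at 48 h and 617 in the opposite one. Of the 1828 that fell, 736 passed in the same direction at 48 h and 193 in the opposite one. The test of the difference, 48 h minus 24 h, called 4211 of 18334 genes (23.0%), 1802 with a higher ratio at 48 h (9.83%) and 2409 with a lower one (13.1%). It called 994 of the genes that rose at 24 h lower at 48 h and 237 higher still, and 749 of those that fell higher at 48 h and 114 lower still. The difference uses the same 24 h arrays as the calls, so its direction in these sets is not independent of them.

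Side by side, the medians of some gene groups were alike at both times and those of others far apart. The median of cleavage-stage genes was 3.64 at 24 h and 4.03 at 48 h, and that of secreted epithelial proteins 1.13 and 1.34. The median of MAGE antigens was 1.66 and 0.40, and that of PAGE, GAGE and XAGE antigens 2.47 and 0.87. In the latter group the difference test called 1 of 10 members lower and 0 higher at 48 h. Its highest members had larger means at 48 h, 7.16 ± 0.54 for PAGE2, 7.15 ± 0.59 for PAGE5 and 6.99 ± 0.33 for PAGE2B, and their differences did not pass (limma adjusted p = 0.0716, 0.0574 and 0.0575). MAEL went from 5.76 ± 0.11 to 6.93 ± 0.21 (limma adjusted p of the difference = 0.0405), and LGALS3 from 7.64 ± 0.10 to 9.46 ± 0.38 (0.0419). The median of cytosolic ribosomal proteins was 0.05 and -1.04, of translation factors 0.27 and -0.46, and of V-ATPase and cathepsin genes 0.59 and -0.29. In these groups the difference test called 17 of 77, 20 of 60 and 18 of 46 members lower at 48 h, and 3 of each higher. Over all genes it called 13.1% lower and 9.83% higher. CTSD turned from 2.11 ± 0.22 to -0.96 ± 0.21 (0.0248), the elongation factor gene EEF1A1 from 0.75 ± 0.02 to -2.43 ± 0.064 (0.0211) and the ATP synthase gene ATP5F1B from 1.19 ± 0.00049 to -2.56 ± 0.11 (0.0211). Claudin genes did likewise, CLDN7 from 1.77 ± 0.11 to -1.34 ± 0.21 (0.0230) and CLDN4 from 1.55 ± 0.088 to -1.88 ± 0.17 (0.0221). In the other direction NANOG went from -1.85 ± 0.23 to 0.52 ± 0.50 (0.0444) and ZNF417 from -4.51 ± 0.011 to -2.62 ± 0.22 (0.0273).

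**Figure D5:**
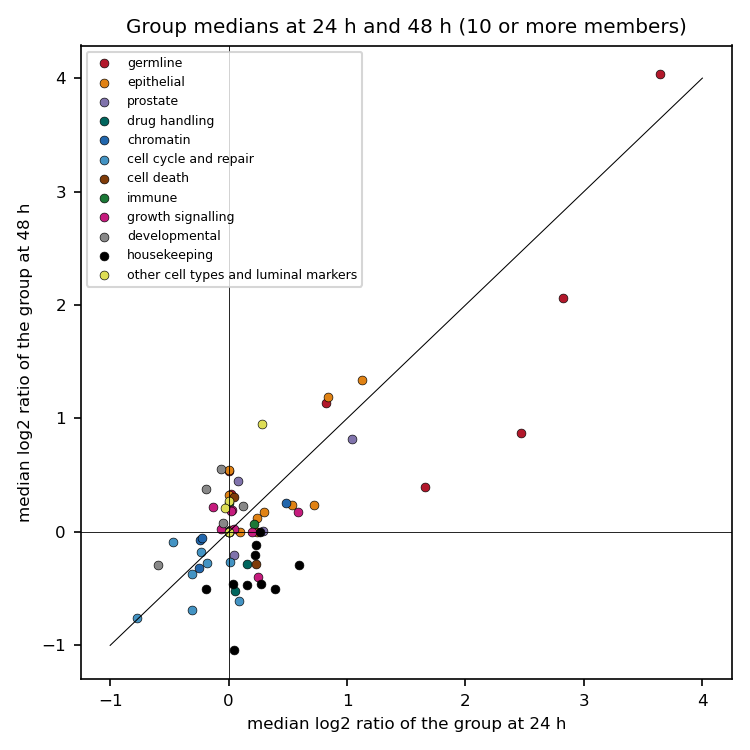
Median log2 ratio of each gene group with 10 or more measured members at 24 h (horizontal) and 48 h (vertical), coloured by kind of group, with the line of equal medians. Cleavage-stage genes lie at 3.64 and 4.03, and cytosolic ribosomal proteins, the lowest point, at 0.05 and -1.04.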

How the data were processed

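In all 4 arrays were hybridised, 2 at 24 h and 2 at 48 h, each with treated and vehicle RNA. The authors deposited one log10 ratio per feature, made with Agilent Feature Extraction 8.5.1.1 per the submitters' processing notes. The base was taken from that software's convention, the direction from the dyes in the labels, and background and dye settings are not given in the sources used here. Of 45220 rows 43376 held values, of which 31332 had 1 gene symbol in the platform annotation, 93 several and 11951 none. Exact zeros made up 6695 and 6011 values of the 24 h arrays, and every column had a median of 0.

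Ratios were multiplied by 3.32 to log2 and features of a symbol averaged, giving 18334 genes, of which 7759 had several features and 1089 were 0 on all arrays. limma 3.58.1 in R 4.3.3 fitted 1 mean per time over 4 arrays (2 residual degrees of freedom), tested 24 h against 0 and 48 h minus 24 h, and adjusted p-values over all genes by Benjamini-Hochberg at 0.05. On simulated data with 6000 of 18334 genes changed, the 24 h test recovered 66.8% of changes of 1 and 94.8% of changes of 3 log2 units, and 4.73% of its calls were unchanged genes. The simulation drew independent normal values with 1 spread per gene at both times and held no dye effect. In the data the 48 h arrays differed more than the 24 h arrays (median absolute difference 0.33 against 0.13). These rates therefore need not hold for the real calls. The number of arrays limits the precision.

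The rule for names took the 25 highest and 25 lowest called genes, the 3 highest and 2 lowest called of each list, members with a special role, and the 10 called genes with the widest range over features. SLC29A1, CDA, UGT2B15, BAX, IFNB1, PIWIL1, PTPRC, CD3E, PECAM1 and DCN were named for their role although they did not pass. Genes and lists were chosen with earlier results of these data known. Promoters were RefSeq windows of GRCh38.p14, matched by Entrez gene identifier for 14410 genes.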

Additional observations from a re-analysis of the deposited data

Results flagged for a closer look

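Of 212 genes named in the report, 66 had a ratio that differed between the 2 times. The test was the limma contrast of 48 h minus 24 h at an adjusted p under 0.05 over all genes. The values that follow are the log2 differences, 48 h minus 24 h, from 2 arrays a time. Over all genes 23.0% passed the same contrast, and the 24 h arrays enter both it and the choice of genes.

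Genes that were positive at 24 h and negative on average at 48 h were ATP5F1B at -3.75, CCND3 at -2.58, CLDN4 at -3.43, CLDN7 at -3.11, CTSD at -3.08, EEF1A1 at -3.19, IMPDH2 at -2.63 and IRF1 at -1.93. This set also held KDM1A at -2.62, KRT7 at -2.78, PCDHA1 at -1.81, PCDHA5 at -1.54, PCDHGB7 at -2.45, PRMT5 at -2.65, STAT3 at -2.52 and UNG at -3.01. Genes still positive at 48 h but with a smaller ratio were ANXA3 at -2.64, CCL8 at -3.14, CDKN1A at -2.10, DUSP1 at -1.81, HBEGF at -0.62, IGFBP6 at -1.81, PMAIP1 at -1.51 and PPM1D at -1.40. Smaller ratios were also those of SERPINA5 at -1.91, SIRT7 at -0.50, STING1 at -0.72, TNFSF10 at -1.30, UGT2B11 at -3.14 and XPC at -0.40. A larger positive ratio at 48 h was found for CDA at 0.65, COX7A1 at 1.66, KLK1 at 1.40, KRT19 at 1.49, LGALS3 at 1.82, LGALS7B at 1.03, MAEL at 1.18 and SOX9 at 0.67. It was found too for SPANXA1 at 1.41 and XIST at 2.05.

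Genes negative at 24 h and positive on average at 48 h were DUT at 0.85, LOC100506124 at 4.18, NANOG at 2.37, NRG2 at 0.94, TRIM71 at 2.65, ZBTB4 at 0.99 and ZNF483 at 2.09. Negative ratios moved toward 0 for BLM at 1.72, CCNB2 at 0.93, CDC25C at 0.64, H4C13 at 1.05, HOXB5 at 1.11, IL1RAPL1 at 0.98, KIF18B at 0.96 and LAMB1 at 1.04. They moved the same way for LHX2 at 1.77, MMP11 at 0.45, NCAPG at 2.11, SYCE2 at 1.20, VASH2 at 1.83 and ZNF417 at 1.89. More negative ratios at 48 h belonged to BIRC5 at -0.49, FOXM1 at -0.93, NEIL3 at -1.02, TFF3 at -0.63 and TNFRSF19 at -1.28. CDA, which had not passed at 24 h, is among the genes with a larger ratio at 48 h.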

How the results depend on the processing

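At 24 h, 4446 genes passed. Centring each array, or reading the values as log2, gave 4446. Neither could change a call, since array medians were 0 already and the log2 reading rescales every gene alike. The median over features gave 4223, averaging by accession 4389, no features at 0 6068 and no genes at 0 on all arrays 5651. Robust moderation gave 3633 and the 24 h arrays alone 6655, of which 3604 and 3592 were among the 4446. Scaling the arrays to one spread gave 7516 and quantile normalization 7387, with 53.3% and 50.4% of calls higher against 58.9%, and a 2-fold threshold gave 214. For the difference between times, 4211 passed, against 6620 with scaling, 6879 with quantile normalization, 7315 without features at 0, 6884 without genes at 0, 2609 with robust moderation and 54 with the 2-fold threshold. Leaving out 1 array gave 0 to 6655 genes at 24 h and 0 to 7786 for the difference, the 0 whenever a 24 h array was left out, which leaves a lone array at that time, assumed to vary like the others. With the replicate number as a block, limma called 0 genes at 24 h (6503 at an unadjusted p under 0.05) and 0 for the difference (7063). Same-numbered arrays of the 2 times had deviations correlated at -0.035, so the numbers were not taken as pairs. Of the 203 named genes that passed, 187 passed with robust moderation and 182 with the 24 h arrays alone. Against the 2-fold threshold 54 of them passed, and with the replicate block 0. Of the 203, 0 changed direction under any of these settings. Each has one sign on both 24 h arrays, so leaving 1 of these out or scaling the arrays could not reverse it. Most other settings keep the 24 h mean or rescale it. Only quantile normalization, the median over features, averaging by accession and dropping features at 0 could have reversed a sign. Among named genes that did not pass, UGT2B15 had opposite signs on the 24 h arrays. The median ratio of a list moved by up to 0.95 without features at 0, 0.59 with scaling, 0.33 without 1 of the 24 h arrays and 2.54 if the values are log2. Why the counts moved was not tested, apart from the fewer arrays of the settings that leave one out.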

Other observations

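Integrins and translation factors were not described above. Of 30 integrins and their partners 7 rose and 2 fell, with ITGA1 at 1.03 ± 0.29 and ITGA3 at 1.02 ± 0.23 (SD, n = 2) and, in the other direction, ITGB1BP2, a muscle integrin-binding chaperone gene, at -1.38 ± 0.26. Of 60 translation factors 9 rose and 3 fell, shares near or below the background. EIF2AK3, the PERK kinase of the unfolded protein response, was at 0.67 ± 0.056 and EIF2B2, a subunit of the exchange factor that this kinase restrains, at 0.92 ± 0.083, while EIF2A was at -0.95 ± 0.11. These shares stand against 14.3% of all genes that rose and 9.97% that fell.

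Features without a gene symbol reached from -5.35 to 5.60 on the log2 scale at 24 h. Of 11951 such features, 22 were at least 16-fold higher in a limma fit across all features. Their transcripts are not named here.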
